A study of Homo sapiens with 16 samples.

Results

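The 5 lines described here, HSB-2, SUP-T13, ALL-SIL, DU528 and KOPT-K1, were chosen from 16 human T-ALL lines because their PIM1 intensity lay above 1900. PIM1 lay below 400 in the other 11 lines, which were PEER, TALL-1, MOLT-4, SUP-T11, LOUCY, P12-ICHIKAWA, SKW-3, PF-382, CCRF-CEM, JURKAT and MOLT-16. T-ALL, short for T-cell acute lymphoblastic leukemia, is a cancer of immature T cells. All 16 were established lines, seeded at the same number in the same medium with serum and left for 24 hours without treatment, and the total RNA of each was measured on 1 Affymetrix array. The labels give no groups and name no added cytokine or drug, so the sides rest on the PIM1 values alone and not on a treatment. The lines are the units of every comparison, each was measured once, and an SD describes the spread between different lines. Every value is the array's summed signal over all cells of a culture, in which fewer cells with a transcript and less transcript per cell cannot be told apart.

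PIM1 is a serine and threonine kinase that needs no activation step, so its activity follows its amount, and its gene is a classical target of the transcription factor STAT5. Cytokine receptors of the interleukin-2 and interleukin-7 family activate JAK1 and JAK3, which phosphorylate STAT5; STAT5 then enters the nucleus and induces survival genes together with the feedback inhibitors CISH, SOCS1 and SOCS2. In T-ALL the same route can be switched on by mutated receptors and kinases or by fused tyrosine kinases such as NUP214-ABL1, which is known in ALL-SIL and PEER. HSB-2 is known for a rearranged LCK gene.

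Among the high lines KOPT-K1 had a PIM1 intensity of 1950.0, DU528 of 2626, ALL-SIL of 3123, SUP-T13 of 4540.4 and HSB-2 of 5131. No line lay between 400 and 1900: KOPT-K1 was the nearest above, and PEER with 372 and TALL-1 with 341 were the nearest below. The other 9 low lines lay between 46.8 in MOLT-16 and 138 in MOLT-4. PIM1 had 1 probe set naming only that gene, and since it chose the sides it was not tested.

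CISH, which binds activated cytokine receptors and blocks STAT5 docking, was lowest of the high lines in DU528, at 1437, followed by SUP-T13 with 3735, ALL-SIL with 5436, KOPT-K1 with 5513 and HSB-2 with 5856. In the low lines it ran from 15.95 in SUP-T11 over a median of 240.6 to 1429 in PEER. The sides therefore did not overlap on this probe set, but DU528 and PEER lay 0.01 apart on the log2(intensity + 16) scale used for all differences below. On the other 2 CISH probe sets PEER was above DU528, with 281 against 253 and 233 against 190.5, so 4 of the 5 high lines were set apart by CISH and DU528 was not. The difference was 4.09 ± 0.63 (SE; 95% interval 2.76 to 5.42; limma adjusted p = 0.0104). CISH was named together with PIM1 when the lines were chosen, and its high level in 4 of them was known beforehand, so it is no independent support. All 3 CISH probe sets carry an _x_at or _s_at name, which marks probes that may also bind other transcripts.

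**Figure D1:**
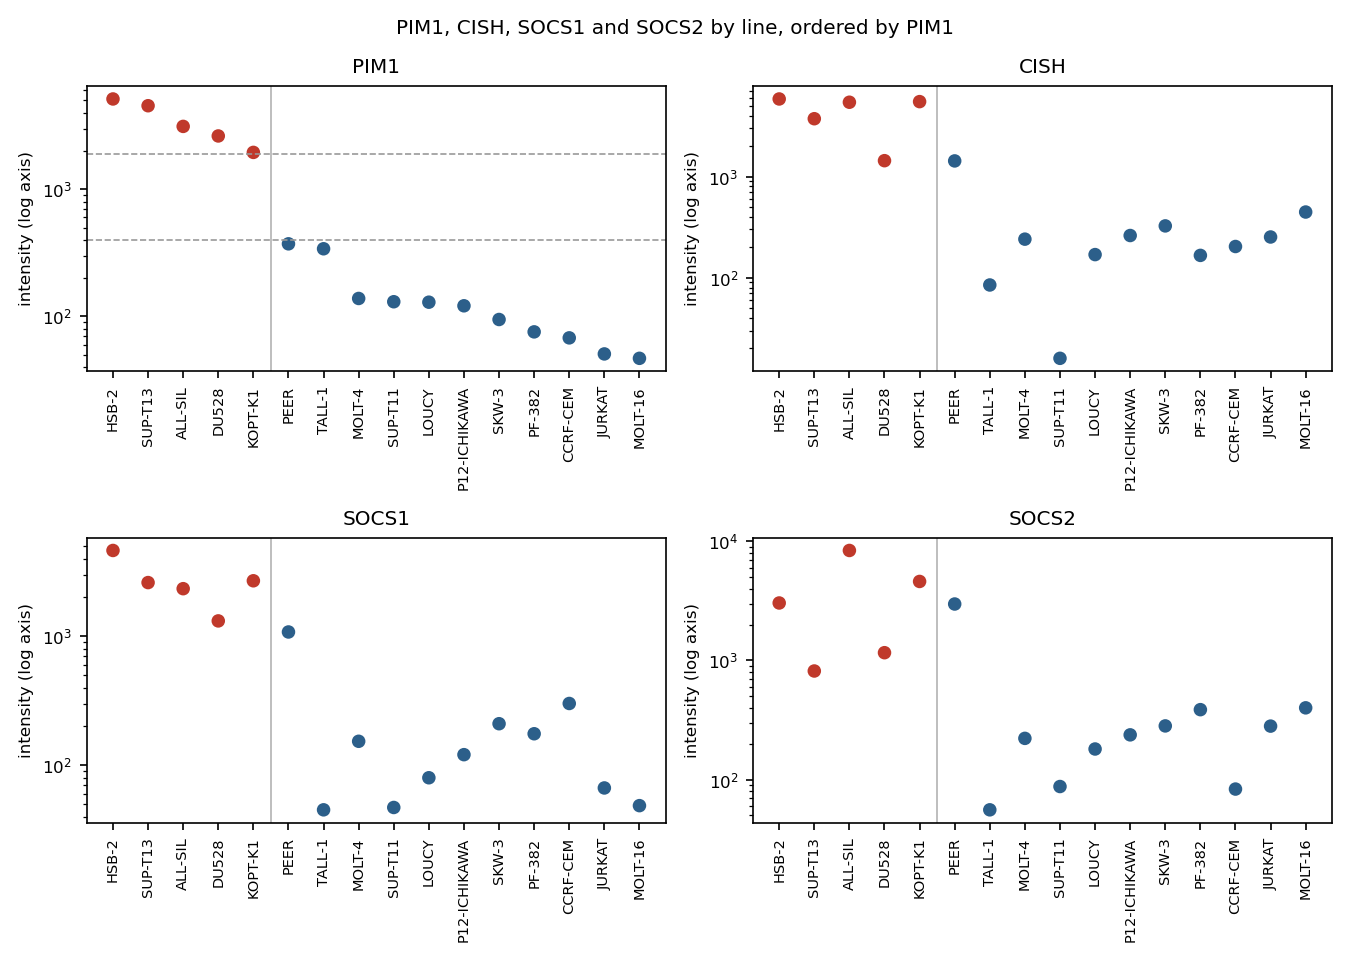
Deposited intensity (log axis) of PIM1, CISH, SOCS1 and SOCS2 in each of the 16 lines, ordered by PIM1, with the 5 PIM1-high lines in red and the other 11 in blue; dashed lines in the PIM1 panel mark 1900 and 400. PEER is the highest blue point in all 4 panels, and it overlaps the red points only for SOCS2.

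The promoter sequences are shown because CISH is known for clustered STAT5 binding sites close to its start of transcription. The 250 bases before the transcription start of RefSeq's promoter table (GRCh38.p14) were searched for the STAT5 motif TTCNNNGAA, whose reverse complement is the same pattern, and matches are in capitals. The table held PIM1 (chr6:37169902-37170151, plus strand), CISH (chr3:50611775-50612024, minus strand) and SOCS1 (chr16:11256205-11256454, minus strand), and not SOCS2 or LIF.
CISH: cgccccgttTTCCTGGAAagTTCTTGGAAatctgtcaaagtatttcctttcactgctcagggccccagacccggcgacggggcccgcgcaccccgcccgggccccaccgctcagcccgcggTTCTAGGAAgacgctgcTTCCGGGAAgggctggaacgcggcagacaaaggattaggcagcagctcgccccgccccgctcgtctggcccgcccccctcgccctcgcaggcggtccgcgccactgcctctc
PIM1: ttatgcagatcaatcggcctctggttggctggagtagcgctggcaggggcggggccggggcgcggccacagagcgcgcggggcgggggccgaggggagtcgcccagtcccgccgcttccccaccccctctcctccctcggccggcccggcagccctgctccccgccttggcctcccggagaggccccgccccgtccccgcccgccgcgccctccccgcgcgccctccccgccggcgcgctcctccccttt
SOCS1: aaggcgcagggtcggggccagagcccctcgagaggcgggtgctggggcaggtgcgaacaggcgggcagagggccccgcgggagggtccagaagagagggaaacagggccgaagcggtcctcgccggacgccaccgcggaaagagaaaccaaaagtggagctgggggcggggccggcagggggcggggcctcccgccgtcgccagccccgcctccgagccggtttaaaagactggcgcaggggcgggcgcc
The CISH window held 4 matches, in 2 pairs: TTCCTGGAA and TTCTTGGAA, starting 241 and 230 bases before the start site, and TTCTAGGAA and TTCCGGGAA, starting 129 and 112 bases before it. Of all 35116 windows in the table, 6.57% held at least 1 match, 0.356% at least 2 and 5 windows at least 4, while the same pattern with 1 more N in its middle was found in 5.38%. Neither the PIM1 nor the SOCS1 window held a match, which says only that these letters are not in these windows. A gene is called here where its difference between the sides had an adjusted p below 0.05. Of the 15 genes called higher that had a window, 2 held a match (CISH and NUCB1), as did 1 of the 7 called lower that had one (TCF4).

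Across all genes, 19 were higher and 11 lower in the PIM1-high lines at an adjusted p below 0.05 (limma, Benjamini-Hochberg over 13309 genes), which is 0.143% and 0.0827% of the genes tested. The values of 12 of the 19 and 8 of the 11 did not overlap between the sides. Over all genes tested 36 had every high line above every low line, or 0.27%, and 20 had every high line below, or 0.15%. Among the called genes the largest differences upward were in SLC35F3, LIF, STAT4, SOCS1 and CISH, and the largest downward in TCF4, SYNGR1 and KBTBD11. With each array centred on its median the calls were 20 higher and 6 lower, so that the higher share was 76.9% in place of 63.3%. By gene, 9 of the 30 kept their call in each fit that left out 1 line: TCF4, SLC35F3, SYNGR1, SOCS1, STAT4, DIXDC1, KLF6, SLFN13 and CISH. PTPN4 and UBALD2 did so in 14 of 16 fits and CETN3 and THORLNC in 1. HDAC4-AS1 kept its call in 13 of these fits, TNFSF10 in 12, CAB39 in 9 and SYNJ2 in 8. The number was 5 for ADAM19 and NHERF1 and 4 for TMEM200A, KBTBD11, FAM111B, LIF, PFDN4 and GVINP1. TFEC, NUCB1, HEBP1 and STX11 kept their call in 3 and CLTRN in 2. The count of higher genes fell to 9 without HSB-2, P12-ICHIKAWA or SUP-T13, to 10 without SKW-3, to 11 without CCRF-CEM, JURKAT, MOLT-4 or PF-382 and to 12 without MOLT-16, and it was 37 without LOUCY. The count of lower genes was 3 without DU528, 4 without PF-382, 5 without CCRF-CEM, HSB-2, JURKAT, KOPT-K1, MOLT-4 or SKW-3, 6 without P12-ICHIKAWA or SUP-T13 and 7 without MOLT-16 or TALL-1.

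**Figure D2:**
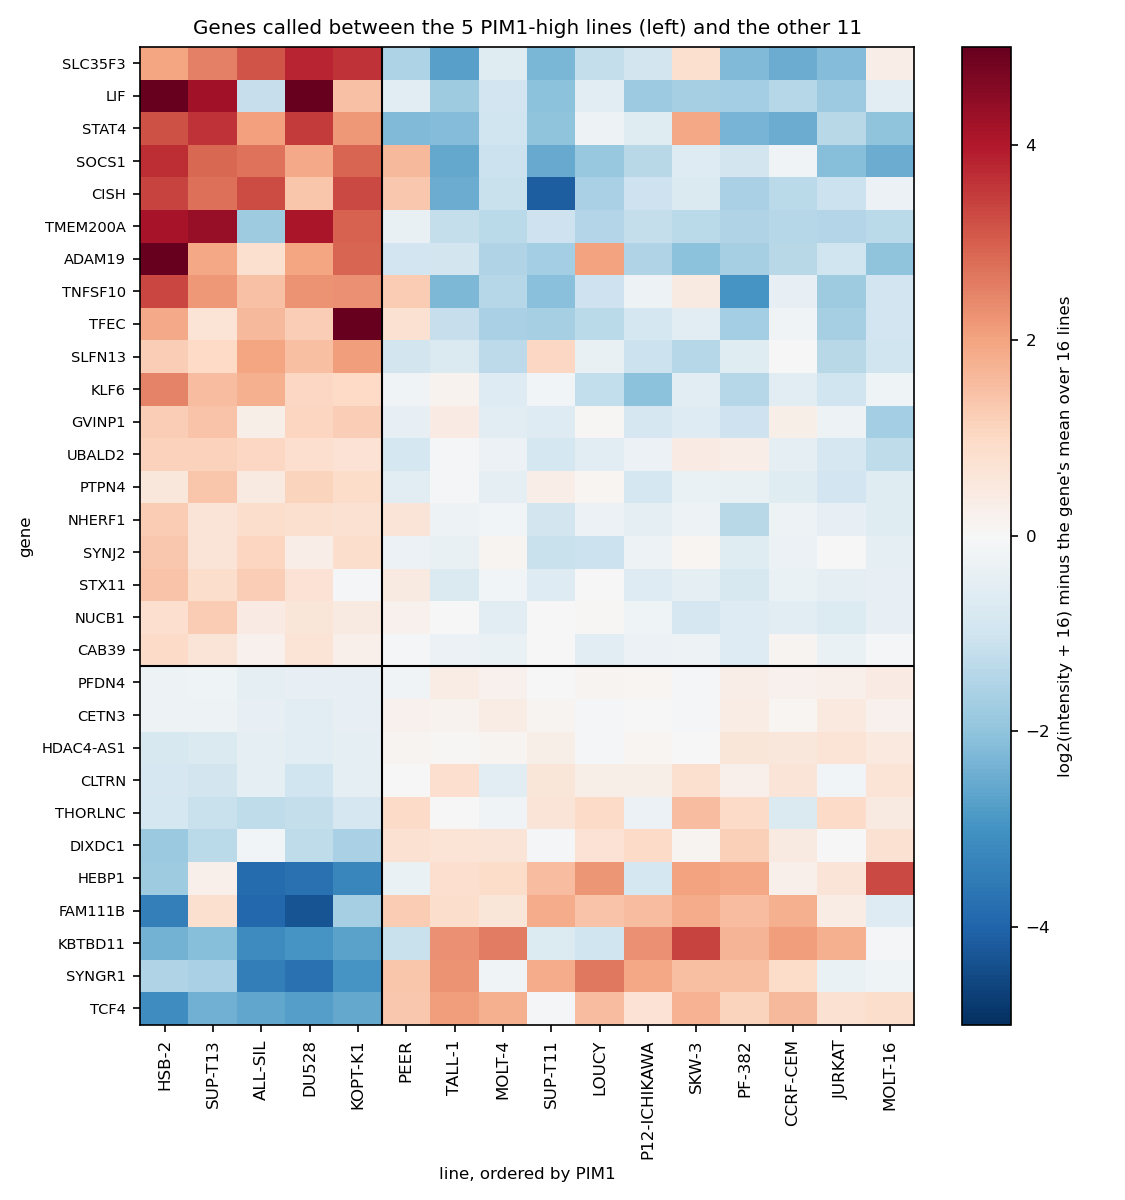
Heat map of log2(intensity + 16), centred on each gene's mean over 16 lines, for the 19 genes called higher (above the horizontal line) and the 11 called lower (below it); columns are lines ordered by PIM1, with the 5 PIM1-high lines left of the vertical line, and values beyond 5 are drawn in the end colours. TCF4 is blue in all 5 PIM1-high lines, whereas LIF and TMEM200A are not red in ALL-SIL.

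Of the array measures only the spikes differed between the sides at an adjusted p below 0.05. Array medians ran from 38.1 to 44.55 in the high and 37.6 to 44.96 in the low lines, and the ACTB 3'/5' control ratio, a measure of RNA integrity, from 1.44 to 1.80 and from 1.45 to 2.03 (exact permutation adjusted p = 0.227 over 6 measures). With the ACTB ratio as a covariate 7 genes were called higher and 3 lower. Upper quartiles were 296.4 ± 3.67 SD in the high and 282.2 ± 17.7 in the low lines (exact permutation p = 0.0991, adjusted p = 0.198). Hybridisation spikes, RNAs added at a fixed amount before hybridisation, were 0.162 higher in log2 units in the PIM1-high lines (11.54 ± 0.145 SD, n = 5, against 11.38 ± 0.0724, n = 11; two-sided exact permutation p = 0.0071, adjusted p = 0.0234). Poly-A spikes, added to the total RNA, were 0.25 higher (7.853 ± 0.223 SD against 7.603 ± 0.0923; exact permutation p = 0.00778, adjusted p = 0.0234). Neither passed without DU528, without KOPT-K1 or without SUP-T13. With the hybridisation spike level as a covariate TCF4 alone of the 30 genes kept its call, and with the poly-A spike level 5 genes did (TCF4, SOCS1, CISH, KLF6 and STX11). With the hybridisation spike level the size of the difference was smaller in 21 of the 30 genes and larger in 9, from 66.4% of its size without the covariate in PTPN4 (0.85 against 1.28) to 123% in SYNJ2. It was 2.91 against 4.32 in LIF and 2.72 against 3.99 in TMEM200A, but 4.16 against 4.11 in SOCS1 and 4.73 against 4.09 in CISH. With the poly-A spike level it was smaller in 11 genes and larger in 18. The part of the spikes in these differences was not tested further.

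The lines expressed T-cell genes on both sides. CD3D, a chain of the T-cell receptor complex, lay between 11761 and 13758 in the PIM1-high and between 7095 and 14179 in the low lines. DU528 was lowest of the high lines for CD2 (11.1), CD5 (9.5), CD3G (667) and CD7 (863). Markers of other cell types were low in most lines: less than 4 times the table median was measured in every line for 6 of 8 myeloid, 4 of 7 B-cell and 6 of 8 stromal genes. The summed level of the myeloid markers ran from 152.5 to 2191 in the high lines and from 141 to 272 in the low ones, and the top value was that of DU528, which had 1669 for CEBPA and 384.5 for LYZ. The sum of the B-cell markers ran from 426.5 to 589 and from 441 to 2526, and that of the stromal markers from 201 to 736 and from 257 to 2822. The sums ran from 115 to 783 and from 112 to 734 for the NK-cell markers, and from 253 to 714 and from 176 to 871 for the erythroid and megakaryocytic ones. None of the 17 tested genes of these 5 lists was called, and 2 had an unadjusted p below 0.05 on the higher side (CEBPA and KLF1) and 1 on the lower (SPARC), where all genes tested had 6.91% and 3.82%. The part of such markers in the results below was not tested.

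Receptors, kinases and STAT factors of the cytokine pathway came first in the order of signalling. Of 26 tested genes 1 was called higher, STAT4, and none lower, and their median difference was 0.68 against 0.021 over all genes tested. At an unadjusted p below 0.05 there were 9 higher and 0 lower, where all genes had 6.91% and 3.82%.

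STAT4 is the STAT factor that interleukin-12 and type I interferon activate in T cells. It was 1795 in SUP-T13, 1638 in DU528, 1325 in HSB-2, 646 in KOPT-K1 and 588 in ALL-SIL. The low lines ran from 10.2 in CCRF-CEM over a median of 20.1 to 543 in SKW-3, and the sides did not overlap. The difference was 4.23 ± 0.60 (SE; 95% interval 2.95 to 5.52; limma adjusted p = 0.0081). STAT4 kept its call in each fit that left out 1 line and lost it with the hybridisation and with the poly-A spike level as a covariate (limma adjusted p = 0.227 and 0.10), where the difference was 3.79 and 4.02.

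The STAT5 genes themselves did not separate the sides. STAT5A was 5431 in DU528, 2655 in HSB-2, 514 in ALL-SIL, 429 in SUP-T13 and 427 in KOPT-K1, against 31.6 to 3194 with a median of 651 in the low lines (difference 0.89 ± 1.01 SE, limma adjusted p = 0.81). STAT5B lay between 1285 and 3310 in the high and between 371 and 2130 in the low lines (0.62 ± 0.35, limma adjusted p = 0.564). STAT3 was also highest in DU528, with 4470. STAT6, the factor downstream of interleukin-4, had a difference of 0.82 ± 0.22 that missed the threshold (limma adjusted p = 0.148).

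Among the receptors, IL2RB, the beta chain shared by the interleukin-2 and interleukin-15 receptors, was 1741 in DU528, 2003 in ALL-SIL, 2803 in HSB-2, 2884 in SUP-T13 and 3318 in KOPT-K1. The low lines ran from 7.46 in SUP-T11 over 319 to 2541 in LOUCY, so the high lines were alike and the low lines spread widely (difference 3.14 ± 0.87 SE, limma adjusted p = 0.171). IL9R, the interleukin-9 receptor, was 2991 in SUP-T13, 2477 in DU528 and 2212 in HSB-2 but 225 in ALL-SIL and 71.6 in KOPT-K1, and the low lines reached 796 in PEER (limma adjusted p = 0.218). IL15RA, the interleukin-15 receptor's own chain, had a difference of 1.77 and IL2RA, the alpha chain of the interleukin-2 receptor, of 0.55, with at most 68.3 in any high line (limma adjusted p = 0.308 for IL2RA). IL7R showed the opposite order in part: it was 3303 in KOPT-K1 and 3879 in TALL-1, a low line, and between 15.9 and 186 in the other 4 high lines (difference -0.89 ± 1.04, limma adjusted p = 0.817).

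Of the JAK kinases, JAK3, the partner of the common gamma chain, was 219 in KOPT-K1, 602 in DU528, 832 in ALL-SIL, 881 in HSB-2 and 1031 in SUP-T13, against 140 to 608 with a median of 256 in the low lines (difference 1.21 ± 0.41 SE, limma adjusted p = 0.268). JAK2 was highest in DU528 with 547. JAK1 (0.86 ± 0.52, limma adjusted p = 0.586) and TYK2 (0.31 ± 0.17, limma adjusted p = 0.56) had overlapping sides.

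**Figure D3:**
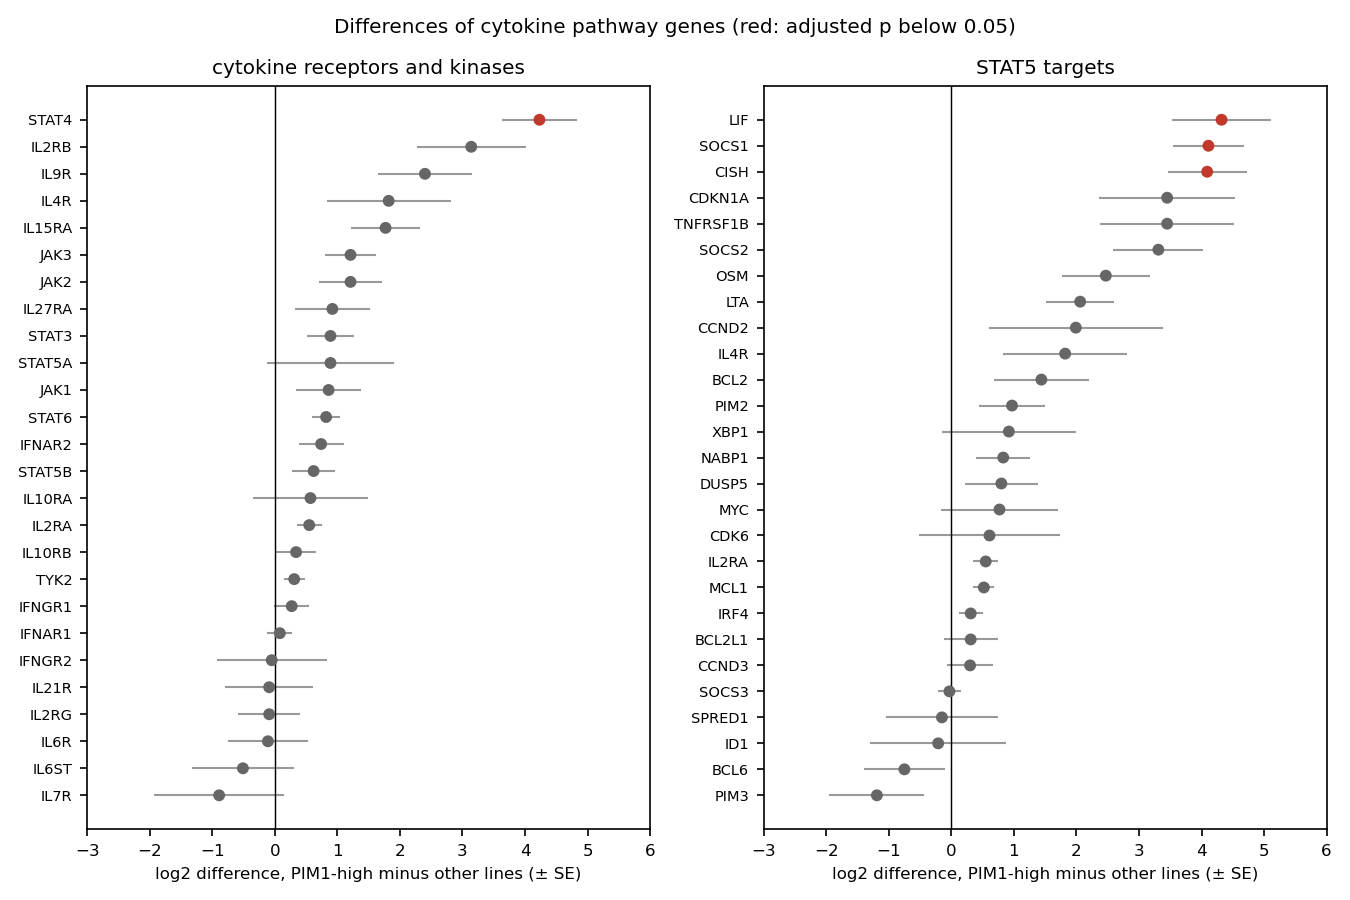
Difference between the mean log2(intensity + 16) of the 5 PIM1-high lines and of the other 11 for each tested gene of the receptor and kinase list (left) and of the STAT5 target list (right), with the standard error as a bar; red points had an adjusted p below 0.05. STAT4 is the red point on the left, and CISH, SOCS1 and LIF are those on the right.

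Targets of STAT5 followed, with PIM1 left out. Of 27 tested genes 3 were called higher (CISH, SOCS1 and LIF) and none lower, where all genes tested had 0.143% and 0.0827%. At an unadjusted p below 0.05 there were 10 higher and 0 lower, where all genes had 6.91% and 3.82%. The high level of CISH was known beforehand, and LIF entered the test through the PIM1-high lines alone, as described below. The median difference of the 27 genes was 0.83. The list holds targets known from several cell types and was drawn up with earlier results of these data known, so the count is a description.

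SOCS1, which blocks the JAK kinases directly, was 1315 in DU528, 2338 in ALL-SIL, 2607 in SUP-T13, 2693 in KOPT-K1 and 4626 in HSB-2. The low lines ran from 45.1 in TALL-1 over a median of 121 to 1079 in PEER, and CCRF-CEM was next with 301. The sides did not overlap on the probe set tested, and PEER lay much nearer to DU528 than to the other low lines. The difference was 4.11 ± 0.57 (SE; 95% interval 2.89 to 5.32; limma adjusted p = 0.00739). Another SOCS1 probe set above the filter differed by 2.81 without overlap. A further one differed by only 0.20, with overlapping sides (46.94 to 90.25 in the high and 35.43 to 70.33 in the low lines).

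SOCS2, a feedback gene of growth hormone and STAT5 signalling, had a similar pattern without passing the threshold. It was 8378 in ALL-SIL, 4603 in KOPT-K1, 3036 in HSB-2, 1161 in DU528 and 815 in SUP-T13, against 55.7 to 400 in 10 low lines and 2976 in PEER. The difference was 3.31 ± 0.72 (SE, limma adjusted p = 0.0741). SOCS3, which answers mainly to STAT3, lay between 68.0 and 161 in the high and between 78.4 and 156 in the low lines (difference -0.03 ± 0.19, limma adjusted p = 0.974). This depended on the probe set: another SOCS3 probe set above the filter, which was not tested, differed by 1.56, with 542 in ALL-SIL, 401 in HSB-2, 137 in SUP-T13, 131 in DU528 and 34.5 in KOPT-K1 against at most 210.2, in PEER, among the low lines.

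LIF, a secreted cytokine of the interleukin-6 family, was 3031 in DU528, 2865 in HSB-2, 1473 in SUP-T13 and 207 in KOPT-K1 but 20.3 in ALL-SIL. In the low lines it was at most 40.9, with a median of 9.50, so no low line reached the table median of 42.4. A gene was tested if its 3rd highest value passed that median, so LIF entered the test through the PIM1-high lines alone. LIF was called higher (4.32 ± 0.79 SE, limma adjusted p = 0.0357), with 4 of 5 high lines above every low line, and 12 of the 16 fits that left out 1 line lost the call (CCRF-CEM, DU528, HSB-2, JURKAT, MOLT-16, MOLT-4, P12-ICHIKAWA, PF-382, SKW-3, SUP-T11, SUP-T13 or TALL-1 left out; highest limma adjusted p over all fits 0.60). OSM, its relative and a known STAT5 target, was 10.0 in DU528 but 251 in KOPT-K1, 316 in ALL-SIL, 515 in SUP-T13 and 795 in HSB-2, against at most 175 in PEER among the low lines (limma adjusted p = 0.18).

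The survival genes MCL1, BCL2 and BCL2L1 were not called. MCL1 lay between 2377 and 3681 in the high and between 1686 and 3539 in the low lines (0.52 ± 0.17 SE, limma adjusted p = 0.241). BCL2 lay between 1004 and 2702 against 13.9 to 4162 (1.44 ± 0.76, limma adjusted p = 0.532), and BCL2L1 between 420 and 1425 against 262 to 2421 (0.31 ± 0.43, limma adjusted p = 0.854). In the BCL2 family as a whole 0 of 14 tested genes were called, and 5 were higher and 0 lower at an unadjusted p below 0.05, against 6.91% and 3.82% of all genes. These were MCL1 and 4 genes that promote cell death, namely BAX (0.87 ± 0.25), BAK1 (0.51 ± 0.17), BMF (1.41 ± 0.46) and BCL2L11 (0.91 ± 0.42).

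CDKN1A, the cell cycle inhibitor p21, showed how the high lines parted among themselves: it was 3238 in DU528, 2767 in HSB-2 and 1272 in KOPT-K1 but 111 in SUP-T13 and 3.06 in ALL-SIL, and in the low lines it ran from 4.13 to 684 (limma adjusted p = 0.227). PIM2, the closest relative of PIM1 in lymphoid cells, was 817 in DU528 and had a median of 97.6 in the high lines against 74.4 in the low ones (0.97 ± 0.52 SE, limma adjusted p = 0.535). PIM3 was 12.2 in ALL-SIL and at most 2486 in the other high lines, against 839 to 3140 in the low lines (-1.19 ± 0.76, limma adjusted p = 0.615). A high PIM1 level thus stood beside PIM2 and PIM3 levels that overlapped between the sides.

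Genes that restrain the pathway, apart from the SOCS genes above, included no call among 17 tested, with 0 higher and 3 lower at an unadjusted p below 0.05. Here and in the next lists the shares over all genes tested were 6.91% higher and 3.82% lower. The 3 were PTPN2, a phosphatase of JAK1 and STAT5 that is lost in some T-ALL, with -0.56 ± 0.25 (SE; 1147 to 3161 against 1567 to 3598), SOCS5 with -1.03 ± 0.48, where ALL-SIL had 11.4, and PIAS2 with -0.81 ± 0.28. Of 21 partners and substrates of PIM kinases 0 were called, and 3 were higher and 1 lower at an unadjusted p below 0.05. Of these RUNX3, a transcription factor of cytotoxic T cells, lay between 3286 and 5093 in the high lines and between 18.6 and 3242 in the low ones, without overlap, yet the wide spread of the low lines left it short of the threshold (3.02 ± 0.93, limma adjusted p = 0.21). CXCR4, a chemokine receptor, was the lower one (-1.22 ± 0.46, limma adjusted p = 0.353), with 570.4 in DU528. Among 18 tested tyrosine kinase genes 0 were called, and 3 were higher (ABL1, CSK and TXK) and 1 lower (ABL2) at an unadjusted p below 0.05. ABL1 was highest in ALL-SIL with 5320, LCK in HSB-2 with 14199, and KIT, the stem cell factor receptor, was 3613 in HSB-2, 2403 in DU528 and 2219 in SUP-T13 but 8.06 in ALL-SIL and 4.92 in KOPT-K1, against 2608 in PEER among the low lines.

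The lowest p-value and the widest gap between the sides belonged to a gene that was lower, TCF4, which encodes an E protein, a basic helix-loop-helix factor of lymphoid and plasmacytoid dendritic cells. TCF4 was 12.7 in HSB-2, 20.4 in DU528, 24.2 in ALL-SIL, 26.0 in KOPT-K1 and 30.1 in SUP-T13, all below the table median of 42.4. TCF4 therefore entered the test through the low lines alone. In the low lines it ran from 215 in SUP-T11 over a median of 610 to 1035 in TALL-1. The gap between the sides was 2.33 log2 units, and the difference was -3.91 ± 0.29 (SE; 95% interval -4.53 to -3.30; limma adjusted p = 4.707e-06). At such low values its size depends on the constant added before the logarithm: it was -2.86 with 64 and -4.44 with 4 in place of 16. Its other 7 probe sets differed in the same direction, from -0.78 to -3.51, and 5 of them did not overlap between the sides. TCF4 kept its call in each of the 16 fits that left out 1 line and in the 13 with another setting, with adjusted p-values from 3.02e-07 to 0.000735. The other E protein genes did not share this: TCF3 had a difference of 0.02 ± 0.18 and TCF12 of 0.02 ± 0.33 (limma adjusted p = 0.977 and 0.986), and they were looked up after the TCF4 result was seen. TAL1, an E protein partner, overlapped between the sides (-0.54 ± 1.34, limma adjusted p = 0.924). Among the tested T-ALL transcription factors 0 of 9 were called and 0 had an unadjusted p below 0.05.

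SYNGR1, a gene of synaptic vesicle proteins, was 7.48 in DU528, 12.2 in ALL-SIL, 24.2 in KOPT-K1, 85.5 in SUP-T13 and 92.6 in HSB-2, against 232 to 1890 with a median of 858 in the low lines (-3.86 ± 0.53 SE, limma adjusted p = 0.00739). That probe set has an _s_at name. On the other probe sets the difference was smaller, at -1.22, with overlapping sides, and at -0.83, without overlap, and with the last of these in its place SYNGR1 was not called (limma adjusted p = 0.157). KBTBD11, a gene of the Kelch family, was between 5.17 and 27.3 in the high lines and between 71.7 and 1952 in the low ones (-3.85 ± 0.70, limma adjusted p = 0.0345), and kept its call in 4 of the 16 fits without 1 line. DIXDC1, a positive regulator of WNT signalling, lay between 22.8 and 111 against 114 to 300.3 (-1.82 ± 0.27, limma adjusted p = 0.0081). On the probe sets tested these 3 genes, like TCF4, were below every low line in all 5 high lines, but DIXDC1 by only 0.03 log2 units. On further DIXDC1 probe sets the difference was -0.62 and -0.87, with overlapping sides.

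FAM111B and HEBP1 were low in 4 of the high lines only. FAM111B, a protease gene, was 5.80 in DU528, 12.5 in ALL-SIL, 24.5 in HSB-2 and 121 in KOPT-K1 but 746 in SUP-T13, within the 264 to 1568 of the low lines (-3.64 ± 0.67 SE, limma adjusted p = 0.0353). HEBP1, a heme-binding protein gene, was at most 69.4 in 4 high lines and 331 in SUP-T13, against 140 to 2847 (-3.59 ± 0.71, limma adjusted p just under 0.05). The other 5 genes called lower had smaller differences: THORLNC (-1.55), CLTRN (-1.08), HDAC4-AS1 (-0.88), CETN3 (-0.55) and PFDN4 (-0.52). CLTRN, CETN3, PFDN4, THORLNC and HEBP1 lost their call when arrays were centred on their medians. THORLNC and HDAC4-AS1 are noncoding RNA genes, and the highest value over all lines was 197 for THORLNC, 141 for HDAC4-AS1 and 60.8 for CLTRN. Like TCF4, KBTBD11, THORLNC and CLTRN entered the test through the low lines alone. In SYNGR1, DIXDC1, FAM111B and HEBP1 fewer than 3 high lines passed the table median, so these genes too were tested because of the low lines.

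Upward, SLC35F3, a solute carrier gene, had the widest gap between the sides, 1.15 log2 units. It was 1785 in DU528, 1585 in KOPT-K1, 1136 in ALL-SIL, 720 in SUP-T13 and 487 in HSB-2, against 3.51 to 210.4 with a median of 28.8 in the low lines (4.37 ± 0.55 SE; 95% interval 3.20 to 5.54; limma adjusted p = 0.00417). KLF6, a zinc finger factor of the Krüppel-like family, was 5375 in HSB-2, 3266 in ALL-SIL, 2764 in SUP-T13, 1938 in DU528 and 1887 in KOPT-K1, against 216 to 1069 (2.26 ± 0.33, limma adjusted p = 0.0081). Its other 4 probe sets had no overlap either.

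TNFSF10, the death ligand TRAIL, was 1295 in ALL-SIL, 2151 in SUP-T13, 2269 in DU528, 2302 in KOPT-K1 and 4810 in HSB-2, and at most 1160, in PEER, among the low lines (3.33 ± 0.57 SE, limma adjusted p = 0.0272). The call was lost without DU528, HSB-2, KOPT-K1 or SUP-T13. SLFN13, a Schlafen family gene, lay between 98.6 and 228 against 5.11 to 99.1 (2.27 ± 0.34, limma adjusted p = 0.0081), and the 1 overlap was between SUP-T13 and SUP-T11. SUP-T11 was its only low line above the table median of 42.4, so SLFN13 entered the test through the PIM1-high lines. PTPN4, a phosphatase that acts on the T-cell receptor, was 2369 in SUP-T13, 1923 in DU528, 1678 in KOPT-K1, 1327 in HSB-2 and 1207 in ALL-SIL, just above the highest low value of 1137 in SUP-T11 (1.28 ± 0.21, limma adjusted p = 0.0183).

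The other genes called higher fell, on the probe set tested, into those shared by all 5 lines and those that 1 or more lines lacked. UBALD2 (1.43), NHERF1 (1.26), a membrane scaffold, SYNJ2 (1.24), an inositol phosphatase, NUCB1 (1.03), a calcium-binding Golgi protein, and CAB39 (0.80), a scaffold of the LKB1 kinase, had no overlap between the sides on that probe set. The further UBALD2 probe set did not overlap either. A further CAB39 probe set did, with 281.7 in ALL-SIL against 282.0 in CCRF-CEM. So did a further NUCB1 probe set, with 120.3 in KOPT-K1 against 150.5 in PEER, and every other SYNJ2 probe set above the filter. In ADAM19, a metalloprotease, 3808 in HSB-2 and 845 in KOPT-K1 stood above all low lines, while DU528 (424), SUP-T13 (422) and ALL-SIL (184) lay at or below the 437 of LOUCY (3.70 ± 0.65 SE, limma adjusted p = 0.0316). TMEM200A, a membrane protein gene, was between 480 and 1316 in 4 high lines and 2.69 in ALL-SIL, with at most 34.1 in the low lines (3.99 ± 0.72, limma adjusted p = 0.0341). Like LIF, TMEM200A entered the test through the PIM1-high lines alone. TFEC, a factor related to MITF, was 2904 in KOPT-K1 and between 87.7 and 229 in the other high lines (3.18 ± 0.62). PEER, the highest low line for TFEC, had 95.85, above the 87.7 of SUP-T13. On the other TFEC probe sets PEER (41.06 and 43.58) lay above DU528 (37.36 and 35.51) and SUP-T13 (40.49 and 42.47). GVINP1 (1.53) and STX11 (1.20), a syntaxin of cytotoxic granule release, each had 1 high line within the low range, namely ALL-SIL and KOPT-K1. The adjusted p of TFEC, NUCB1, GVINP1 and STX11 lay just under 0.05 in limma. PEER was the only low line above the table median for TFEC and STX11, so both entered the test through the PIM1-high lines.

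Other probe sets bore on these calls. Of the 30 genes 16 had a further probe set above the filter, 37 in all, and all 37 differed in the same direction as the one tested, 17 of them without overlap. Probe sets of a gene share its RNA and array and are not replicates. Beyond the called genes, the widest gaps upward were in NEDD9, an adhesion scaffold (533 to 1695 against 21.8 to 326), ACSL5, a fatty acid ligase (610.1 to 1207 against 9.54 to 470.5), TGFBR1, the type 1 receptor for TGF-beta (2934 to 4317 against 828 to 2456), and FER, a tyrosine kinase (526 to 848 against 33.2 to 456). Their limma adjusted p-values were 0.0679, 0.106, 0.0653 and 0.217. Downward they were in ATP2A1-AS1 (58.4 to 347 against 421 to 888, limma adjusted p = 0.0653), GAS2, NUP155, a nuclear pore gene, and GTF2IP20.

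The 5 lines were not a uniform set. Of the 13309 genes tested, ALL-SIL alone failed to clear the low lines for 47 genes that the other 4 high lines exceeded, and KOPT-K1 for 43, against 18 each for DU528 and SUP-T13 and 11 for HSB-2. Downward the counts were 19 for ALL-SIL, 16 for KOPT-K1, 10 for SUP-T13 and 7 each for DU528 and HSB-2. Among the genes that ALL-SIL lacked were LIF and CD70, a ligand of activated lymphocytes that was 1396 in DU528, 926 in HSB-2, 447 in SUP-T13 and 248 in KOPT-K1 but 4.38 in ALL-SIL and at most 51.9 in the low lines (3.26 ± 0.69 SE, limma adjusted p = 0.0671). DU528 lacked OSM, and SUP-T13 lacked DUSP6, a phosphatase that limits ERK: DUSP6 was 10799 in HSB-2, 9112 in ALL-SIL, 5056 in KOPT-K1 and 2141 in DU528 but 325 in SUP-T13, against at most 1795 in the low lines (limma adjusted p = 0.203). HSB-2 had the highest value in 10 of the 19 genes called higher, and ALL-SIL the lowest of the high lines in 9.

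Among the low lines PEER came nearest. It had the highest low value in 8 of the 19 genes called higher, followed by SKW-3 with 3, and in CISH, SOCS1, TNFSF10 and NHERF1 it lay next to the PIM1-high lines. It was also the highest low line for PIM1, SOCS2, OSM, IL9R, JAK2, JAK3, KIT and RUNX3. For TCF4, at 610, and STAT4, at 15.6, PEER lay with the low lines. Without DU528 and PEER 24 genes were called higher, 12 of them among the 19, and 5 lower, a fit chosen after the CISH values were seen.

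Genes outside the cytokine pathway are given by list, each beside 6.91% higher and 3.82% lower at an unadjusted p below 0.05 over all genes and a median of 0.021. Class I antigen presentation genes had 0 calls in 14, with 9 higher and 0 lower at an unadjusted p below 0.05, and a median of 0.78 with all 14 differences above 0. All differences were also above 0 for the 9 cholesterol genes and the 10 housekeeping genes tested, with medians of 0.35 and 0.14. TAPBP, which loads peptide onto class I molecules, lay between 2002 and 2914 against 612 to 1913 (0.73 ± 0.21 SE, limma adjusted p = 0.187), without overlap. HLA-B was 13202 in HSB-2, 11036 in SUP-T13 and 9075 in KOPT-K1 but 3363 in ALL-SIL and 2517 in DU528, and 12725 in LOUCY among the low lines (1.36 ± 0.59, limma adjusted p = 0.418). Class I HLA genes are near-identical in sequence, so their probe sets may share signal. In the interferon response list 0 of 23 were called and 4 were higher and 0 lower at an unadjusted p below 0.05, led by GBP1 (2.41 ± 0.96).

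Cytotoxic granule genes had 0 calls in 12, with 4 higher and 0 lower at an unadjusted p below 0.05, and a median of 1.22. NKG7, a granule membrane protein, was 4915 in SUP-T13, 3499 in HSB-2, 2099 in ALL-SIL, 1173 in KOPT-K1 and 549 in DU528, against 8.96 to 2046 with a median of 149 in the low lines (3.82 ± 0.87 SE, limma adjusted p = 0.0911). The other 3 were GNLY, GZMB and CTSW, and GNLY was 1777 in HSB-2 with a median of 38.2 in the high lines. The sum of the NK-cell markers, given above, ran over a similar range on both sides.

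Cortical thymocyte genes, which mark double-positive T-cell precursors, had 0 calls in 13 and a median of -1.51, with 1 difference above 0. Of them 0 were higher and 1 lower at an unadjusted p below 0.05, RAG2, a recombinase subunit (-1.73 ± 0.80 SE, limma adjusted p = 0.46). The NOTCH1 list had 0 calls in 14 and a median of -0.38, with TRIB2 (1.79 ± 0.54) higher and HES4 (-2.85 ± 1.20) lower at an unadjusted p below 0.05. For T-cell receptor complex genes it was 0 calls in 16, with 4 higher (CD247, CD7, LCP2 and UBASH3A) and 0 lower. For immature and progenitor genes it was 0 calls in 14, with BCL11A lower (-3.16 ± 1.27).

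In the MAP kinase feedback list 0 of 16 were called and 1, DUSP6, was higher at an unadjusted p below 0.05. In the NF-kappaB and activation list 0 of 11 were called and 2, CD70 and NFKB1, were higher. Proliferation genes had 0 calls in 18 with 1 lower (AURKA), and a median of 0.07. Glycolysis and hypoxia genes had 0 calls in 15 with 2 higher, EGLN3 (2.16 ± 0.54 SE) and SLC2A3 (1.31 ± 0.40). Serine synthesis genes had 0 calls in 14 and 0 at an unadjusted p below 0.05 in either direction, and cholesterol genes 0 calls in 9 with 1 higher (LSS). The 10 housekeeping genes had 0 calls, with B2M (0.25 ± 0.11) and YWHAZ (0.33 ± 0.09) higher at an unadjusted p below 0.05, and a median of 0.14.

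**Figure D4:**
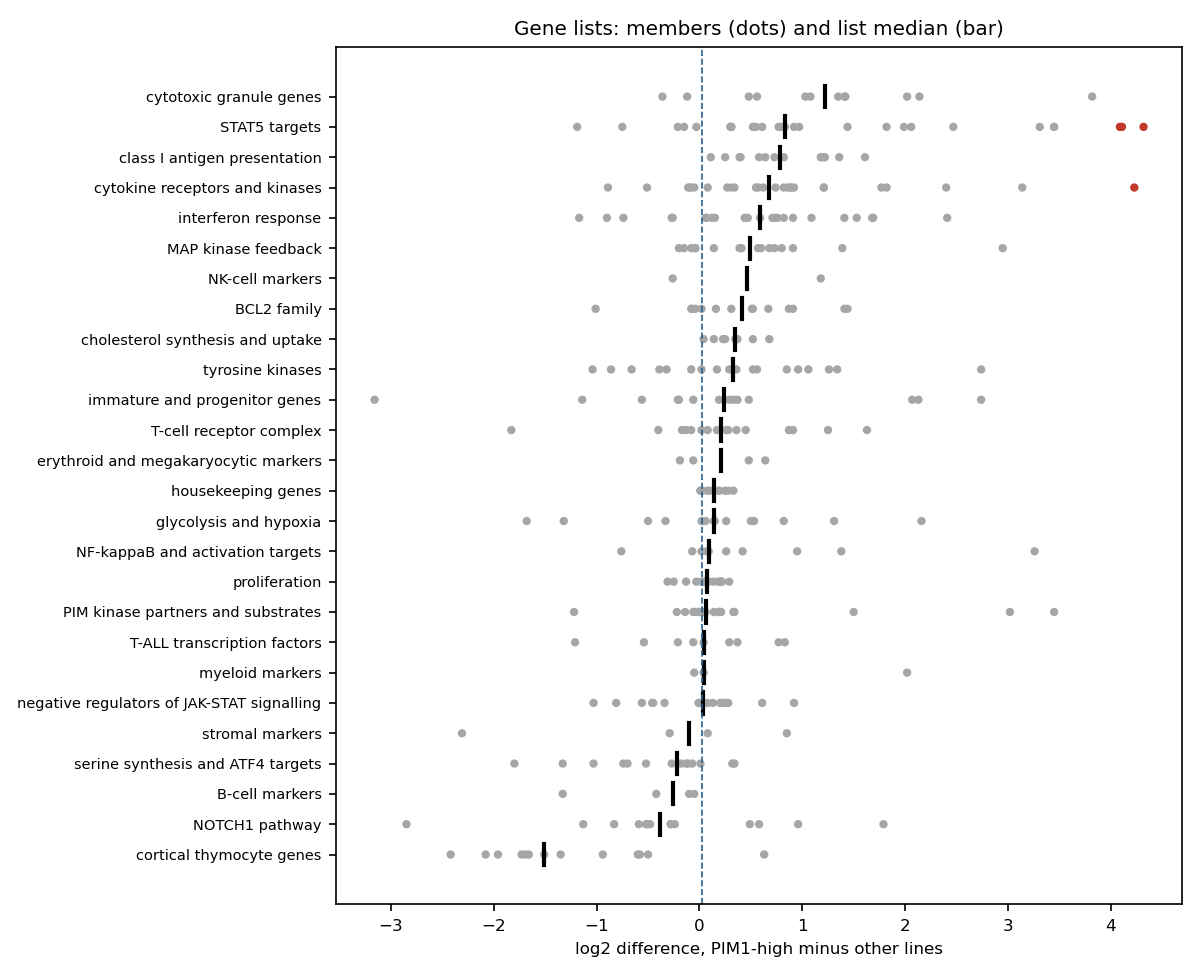
Log2 difference between the 5 PIM1-high lines and the other 11 for each tested member (dots) of 26 gene lists, with the list median as a black bar; red dots had an adjusted p below 0.05 and the dashed line is the median of all genes tested, 0.021. The 4 red dots are CISH, SOCS1, LIF and STAT4, and the lowest median, -1.51, is that of the cortical thymocyte genes.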

How the data were processed

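The authors deposited probe set intensity values on a linear scale for 16 lines, 1 array each (54675 probe sets; array medians 37.6 to 44.96); how they were computed is not given in the sources used here. No further normalization was applied. The scale of all tests was log2(intensity + 16). Of the probe sets 41091 named 1 gene in the platform annotation, 1801 several, 11721 were not listed and 62 were controls. Each of 19775 genes took its probe set with the highest mean, and 13309 genes besides PIM1 whose 3rd highest value passed the table median of 42.4 were tested by limma 3.58.1 with its trend and robust options (R 4.3.3), 5 PIM1-high against 11 other lines, at a Benjamini-Hochberg adjusted p below 0.05. The number of arrays limits the precision, and the limma p-values set the difference between the sides against the spread between lines within them.

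The lines, the 26 gene lists (399 genes, 370 measured, 329 tested) and the rule for named genes were chosen with earlier results of these data known. The text names PIM1 and CISH, called genes, list members and the genes with the widest gaps; other names are stated as such. Control measures had two-sided exact permutation tests over 4368 splits (smallest p 0.000229). In simulated data with this design, 55.5%, 77.0% and 90.0% of 200 genes shifted by 1, 2 and 3 log2 units were recovered, with 2, 9 and 14 false calls. The simulated noise was normal, independent between genes and equally wide on both sides. Real genes vary together and their spread can differ between sides, so these rates need not hold for them. Alternatives were other pseudocounts, filters, scalings, probe sets, limma settings and covariates and leaving out each line. Python 3.11.15, pandas 2.3.3 and matplotlib 3.10.9 were used for summaries and figures.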

Additional observations from a re-analysis of the deposited data

Results flagged for a closer look

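Among the 5 PIM1-high lines, 37 results (PIM1, the 30 called genes and 6 array measures) were checked for a line far from the others with Dixon's criterion (gap over range above 0.71), which flags about 1 in 20 groups by chance. It was met by 2 results. TMEM200A was 2.69 in ALL-SIL, against 480 in the next line, KOPT-K1, with a gap of 0.768 of the range. TFEC was 2904 in KOPT-K1, against 229 in the next line, HSB-2, with a gap of 0.742 of the range.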

How the results depend on the processing

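No paired analysis was possible because each array was a different line and the labels give no pairing between lines. Of the 30 called genes none changed direction in any fit, 8 kept their call under all 10 other settings listed at the outset that tested them and on leaving out any 1 line (6 higher, 2 lower) and 9 in every fit leaving out 1 line. The 19 higher genes became 7 with the ACTB 3'/5' ratio as a covariate, 0 with the hybridisation spike level and 4 with the poly-A spike level (the spike covariates were added after seeing the data), and 9 to 37 on leaving out 1 line. The 11 lower genes became 7 with log2(intensity + 64), 6 without a filter, 7 with quantile normalization, 6 with centred arrays, 3 with the ACTB ratio, 1 with either spike level, 5 without DU528 and PEER (also added) and 3 to 10 on leaving out 1 line. The 36 genes higher without overlap became 70 without DU528 and PEER and 37 to 83 on leaving out 1 line; the 20 lower became 11 with the stricter filter, 31 without DU528 and PEER and 20 to 39 on leaving out 1 line, where fewer lines make separation easier. The 4 called list members became 0 and 2 with the hybridisation and poly-A spike levels and 3 to 5 on leaving out 1 line, and the 2 control measures that differed became 0 to 2. The cause of these changes was not tested.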
